A study of Mus musculus with 81 samples.

Results

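The regulators of G protein signalling described here are 6 genes, Rgs1, Rgs2, Rgs3, Rgs14, Rgs18 and Rgs19, taken from 19752 genes that the array platform's gene table names. Members were found by their symbol in that table, which gave 7 of 24922 probe sets: 1 for each gene and a second, dimmer one for Rgs3. The genes were selected from earlier results on the levels and strain differences of the same arrays, so their spread among strains and their differences by origin are given as descriptions with no test. The arrays measured RNA of bone marrow neutrophils sorted for CD11b and Ly6G from male mice aged 6 weeks, for which no treatment is labelled, with each array made from a pool of mice of a single inbred strain. The 81 arrays fall into 40 title groups: 37 groups with 2 arrays each, C57BL/6J with 5, and FVB/NJ and SWR/J with 1 array each.

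The wild-derived groups were PWD/PHJ, MSM/Ms, JF1/Ms, WSB/EiJ and CAST/EiJ. The classical groups were 129S1/SvImJ, A/J, AKR/J, C3H/HeJ, C57BL/10J, C57BL/6J, C57BLKS/J(662), C57L/J (668), CBA/CaJ, CBA/J, CE/J, DDY/JclSidSeyFrkJ, FVB/NJ, KK.Cg-Ay/J, LGJ, LP/J(676), MA/MyJ, MRL/MpJ, NOD/ShiLtJ, NON/ShiLtJ, NOR/LtJ, NZB/BINJ, NZW/LacJ, P/J, PL/J, RIIIS/J, SEA/GnJ, SJL/J, SM/J and SWR/J, and 5 groups titled Balb, BPL, BTBR, C57BR and DBA2, whose genetic background label names another strain than the title. That label is BTBR T+ tf/J for the arrays titled Balb, BALB/cByJ for those titled BPL, BPL/1J for those titled BTBR, CBA/CaJ for those titled C57BR and DBA/1LacJ for those titled DBA2. The name of KK.Cg-Ay/J carries the Ay allele of the agouti gene, and BTBR T+ tf/J names the T+ and tf alleles. The split by origin rests on common knowledge of the strain names.

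G protein-coupled receptors switch on heterotrimeric G proteins by loading GTP onto the alpha subunit, and RGS proteins switch them off again by speeding the hydrolysis of that GTP. Neutrophils are steered by chemoattractant receptors that couple mainly to Gi proteins, and RGS proteins set how strongly and how long these receptors signal. The family differs in target: Rgs2 prefers Gq, Rgs3, Rgs18 and Rgs1 act on Gi and Gq, Rgs19 acts on Gi-type subunits, and Rgs14 carries further domains that bind Ras-family proteins and inactive Gi.

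The sorted cells carried the neutrophil markers in every strain, with a mean log2 intensity over 13 marker genes between 13.25 and 13.39. The mean over 8 B cell genes lay between 6.05 and 6.65 and that over 9 T and NK cell genes between 5.90 and 6.63. Other lists reached higher. The monocyte and macrophage list lay between 6.78 and 7.77, and the megakaryocyte and platelet list between 6.60 and 7.63. The eosinophil list lay between 6.61 and 7.25, and the cell cycle list between 6.89 and 9.54. Array medians lay between 97.2 and 114.8 intensity units. Replicate 1 of NZB/BINJ stood apart, with a median correlation with the other arrays of 0.962, against 0.972 or more for every other array, and the NZB/BINJ values that rest on it are given with and without it. In bulk samples such as these, fewer cells of a type and less RNA per cell cannot be told apart.

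Promoter windows of RefSeq, build GRCm38.p6, were found for 3 of the 6 members, Rgs2, Rgs3 and Rgs19. Those of Rgs2 and Rgs3 are printed because these genes varied most among the strains, and Rgs3 is printed with both of its start sites because its 2 probe sets list different transcripts. Each run is the 250 bases before a start site, 5′ to 3′ on the gene's strand, with searched motifs in capitals. The Rgs2 window lies at chr1:144004150-144004399 on the minus strand, and the Rgs3 windows lie at chr4:62559597-62559846 and chr4:62619422-62619671 on the plus strand.
Rgs2: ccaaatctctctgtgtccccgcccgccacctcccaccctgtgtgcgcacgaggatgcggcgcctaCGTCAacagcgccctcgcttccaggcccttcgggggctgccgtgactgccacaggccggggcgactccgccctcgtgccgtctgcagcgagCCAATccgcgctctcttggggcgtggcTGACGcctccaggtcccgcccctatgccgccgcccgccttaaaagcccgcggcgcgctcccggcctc
Rgs3 upstream start: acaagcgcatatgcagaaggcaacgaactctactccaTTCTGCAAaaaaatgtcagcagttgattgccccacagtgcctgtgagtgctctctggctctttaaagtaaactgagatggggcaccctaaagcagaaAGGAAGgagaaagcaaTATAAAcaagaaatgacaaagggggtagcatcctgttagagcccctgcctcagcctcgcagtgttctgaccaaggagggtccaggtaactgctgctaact
Rgs3 downstream start: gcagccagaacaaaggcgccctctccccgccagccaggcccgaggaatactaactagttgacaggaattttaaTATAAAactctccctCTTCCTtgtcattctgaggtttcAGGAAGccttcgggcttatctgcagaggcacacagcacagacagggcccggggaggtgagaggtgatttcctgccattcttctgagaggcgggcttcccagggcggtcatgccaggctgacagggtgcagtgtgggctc

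The motifs were searched on both strands: TGACGTCA (the cyclic AMP response element), TGACG (the core of that element, which the full element contains), CCAAT (the CCAAT box), TATAAA (the TATA box), AGGAAG (the core of sites bound by PU.1) and TTGCNNAA (a C/EBP pattern). The Rgs2 window was 72.4% G and C and held TGACG on the opposite strand with its match starting 185 bases before the start site, TGACG on the gene's strand 67 bases before it and CCAAT 94 bases before it. The upstream Rgs3 window was 48.4% G and C and held TATAAA 100, AGGAAG 116 and, on the opposite strand, the C/EBP pattern 213 bases before the start site. The downstream Rgs3 window was 56.8% G and C and held TATAAA 177 and AGGAAG 139 bases before the start site, and AGGAAG on the opposite strand 162 bases before it. Among 32841 windows of the same length, 17.8% held TGACG, 33.9% CCAAT, 12.4% TATAAA, 29.5% AGGAAG, 9.57% the C/EBP pattern and 1.55% the full element. These matches are letters in the sequence of the reference strain and were not tested for factor binding.

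Rgs3 had the widest spread of the members, and it lay in 3 wild-derived strains. On its bright probe set the arrays of MSM/Ms read 7.53 and 7.44 on the log2 intensity scale, those of JF1/Ms 7.34 and 7.65, and those of PWD/PHJ 8.06 and 7.97. The other wild-derived strains were far higher, with 10.35 and 10.26 in CAST/EiJ and 10.35 and 10.44 in WSB/EiJ. Strain means of the 35 classical strains had a lowest value of 10.01, a median of 10.63 and a highest value of 10.99. No array of MSM/Ms, JF1/Ms or PWD/PHJ overlapped an array of any other strain, whereas CAST/EiJ and WSB/EiJ lay inside the classical range. The groups averaged 8.74 ± 1.49 in wild-derived strains (SD, n = 5) and 10.63 ± 0.22 in classical strains (SD, n = 35), a difference of -1.89 ± 0.24 (SE). That SE assumes 1 spread for both groups. The wild-derived strains varied far more, so it is too small for this probe set. The gap between PWD/PHJ and the next strain, the group titled Balb at 10.01, was 1.99, against a pooled SD between arrays of the same strain of 0.16.

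**Figure D1:**
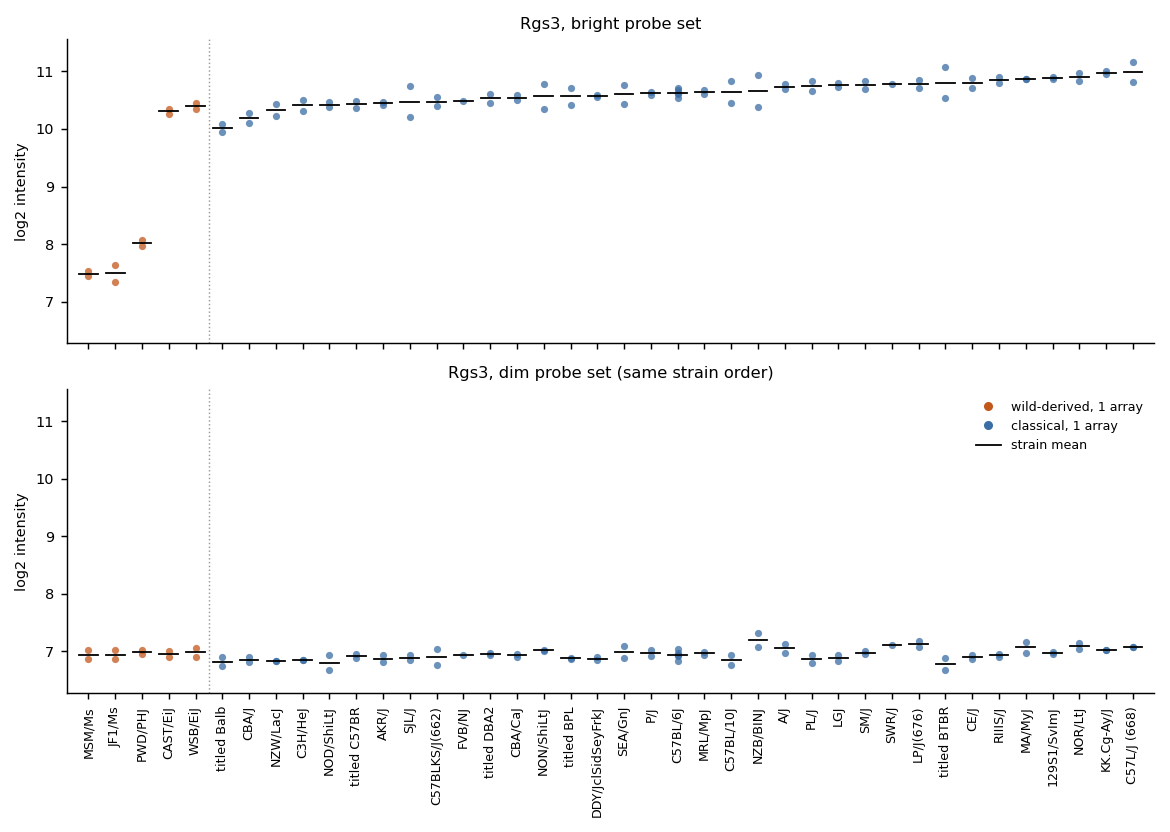
Log2 intensity of the bright (upper panel) and dim (lower panel) Rgs3 probe sets in every array (points, 1 to 5 per strain) with strain means (bars), wild-derived strains left of the dotted line and classical strains right of it, in order of the bright probe set. MSM/Ms, JF1/Ms and PWD/PHJ sit between 7.34 and 8.06 on the bright probe set and do not stand apart on the dim one.

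Over all 40 strains the bright Rgs3 probe set ranged over 3.50, an 11.3-fold spread, with an SD of strain means of 0.82 that exceeded the SD of 99.0% of all probe sets. Within the classical strains the order was nearly continuous. Of 39 steps between neighbouring strains, 3 exceeded the SD between arrays: JF1/Ms to PWD/PHJ, PWD/PHJ to the group titled Balb, and that group to CBA/J at 10.19. The lowest classical strains after these were NZW/LacJ at 10.33, C3H/HeJ at 10.41 and NOD/ShiLtJ at 10.42. The highest were C57L/J (668) at 10.99, KK.Cg-Ay/J at 10.98, NOR/LtJ at 10.90, 129S1/SvImJ at 10.89 and MA/MyJ at 10.86. None of these neighbours differed beyond the spread between arrays.

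The dim Rgs3 probe set gave another picture. Its strain means ran only between 6.78 in the group titled BTBR and 7.20 in NZB/BINJ, with an SD of 0.094, where the spread between arrays alone would give strain means an SD of 0.065. The NZB/BINJ value rested on the array that stood apart: without it that strain read 7.07, and LP/J(676) was highest at 7.13. MSM/Ms, JF1/Ms and PWD/PHJ averaged 6.95, 6.95 and 6.99 there, near the classical median of 6.93. The platform lists 12 transcript records for the bright probe set and 11 for the dim one, of which 4 are shared. Weaker hybridisation of transcripts that differ in sequence from the probes would also read as a lower value, and its part was not tested.

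Rgs2, a regulator that prefers Gq and is known as an early-response gene, had higher values in most wild-derived strains. The arrays of PWD/PHJ read 12.34 and 12.27, those of MSM/Ms 12.21 and 12.40, those of JF1/Ms 12.21 and 12.07, those of CAST/EiJ 12.05 and 12.00, and those of WSB/EiJ 11.83 and 11.63. The classical strain means had a lowest value of 11.38, a median of 11.62 and a highest value of 12.06. All 5 wild-derived strains lay above the classical median, and JF1/Ms, MSM/Ms and PWD/PHJ lay above every classical strain. The groups averaged 12.10 ± 0.24 in wild-derived strains (SD, n = 5) and 11.70 ± 0.21 in classical strains (SD, n = 35). The difference was 0.40 ± 0.10 (SE).

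**Figure D2:**
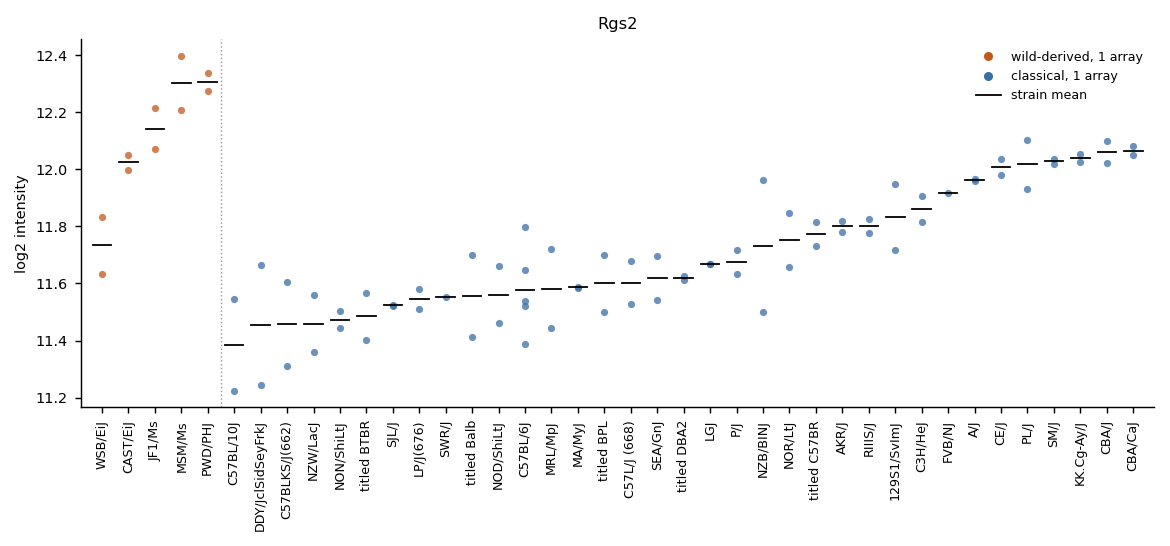
Log2 intensity of Rgs2 in every array (points, 1 to 5 per strain) with strain means (bars), wild-derived strains left of the dotted line and classical strains right of it. JF1/Ms, MSM/Ms and PWD/PHJ average 12.14, 12.30 and 12.31, above the highest classical strain at 12.06.

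Without replicate 1 of NZB/BINJ the Rgs2 difference was 0.39. Among classical strains the upper end was formed by CBA/CaJ and CBA/J, both at 12.06, KK.Cg-Ay/J at 12.04, SM/J at 12.03, PL/J at 12.02, CE/J at 12.01 and A/J at 11.96. The lower end held C57BL/10J at 11.38, DDY/JclSidSeyFrkJ, C57BLKS/J(662) and NZW/LacJ at 11.46, NON/ShiLtJ at 11.47 and the group titled BTBR at 11.48. Only the step between JF1/Ms and MSM/Ms, 0.16, exceeded the SD between arrays of 0.13, so no classical strain stood apart from its neighbours. The whole range was 0.92, or 1.89-fold. Arrays of some strains differed widely: C57BL/10J read 11.55 and 11.22, and DDY/JclSidSeyFrkJ 11.67 and 11.25.

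Some markers of other cells and states, which are no members and were tested, were called by origin. Of all probe sets, limma called 6.64% higher and 5.55% lower in wild-derived strains. None of 9 T and NK cell, 4 erythroid and 7 late maturation genes was called. The part of the called markers in the Rgs2 difference was not tested. The list means overlapped: the cell cycle list, 14 genes, lay between 7.11 and 7.99 in wild-derived strains, against 6.89 to 9.54 in classical strains. Of its genes 1, the replication clamp gene Pcna, passed the origin test as lower in wild-derived strains (difference -1.13, adjusted p 0.011). The early progenitor granule list, 5 genes, lay between 6.17 and 6.37 in wild-derived strains, against 6.25 to 7.16 in classical strains. The monocyte and macrophage list, 8 genes, lay between 6.78 and 7.26 in wild-derived strains, against 6.82 to 7.77 in classical strains. Of the single markers, 1 of 7 basophil and mast cell genes, the stem cell factor receptor Kit, was lower in wild-derived strains (difference -1.54, adjusted p 1.5e-06), as were the granule gene Camp (difference -0.37, adjusted p 0.0027) and S100a8 (difference -0.20, adjusted p 0.0004) among 13 neutrophil genes. Of 8 monocyte and macrophage genes, Csf1r was higher (0.45, adjusted p 0.0029) and Vcam1 lower (difference -0.69, adjusted p 0.037), and of 8 megakaryocyte and platelet genes the receptor gene Clec1b was higher (1.55, adjusted p 0.038). Of 5 eosinophil genes Siglecf was higher (0.54, adjusted p 0.00087). Lower in wild-derived strains were Cd79b of 8 B cell genes (difference -0.25, adjusted p 0.037) and Ms4a3 of 5 early progenitor genes (difference -0.85, adjusted p 0.026). Over the 40 strain means Rgs2 correlated with the cell cycle, early progenitor and monocyte lists at r = -0.293, -0.381 and -0.316. Over the 35 classical strains these were weaker, at -0.147, -0.2 and -0.215. All are descriptions of strains that share ancestry and an array type.

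Rgs18, a regulator known from platelets and other blood cells, varied less. Strain means lay between 11.88 in the group titled BTBR and 12.47 in NZW/LacJ, an SD of 0.14, where the spread between arrays alone would give 0.093. The wild-derived strains read 12.46 in CAST/EiJ, 12.35 in JF1/Ms, 12.26 in PWD/PHJ and WSB/EiJ and 12.24 in MSM/Ms, all above the classical median of 12.18 and all inside the classical range. The groups averaged 12.31 ± 0.091 in wild-derived strains (SD, n = 5) and 12.17 ± 0.14 in classical strains (SD, n = 35). The difference was 0.14 ± 0.064 (SE). No step between neighbouring strains exceeded the SD between arrays. Over 40 strains the r of Rgs18 with the mean of 8 megakaryocyte and platelet genes, among them the platelet receptor gene Gp9, was 0.0631.

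Rgs19, which acts on Gi-type alpha subunits, lay between 11.59 in NZB/BINJ and 12.08 in MSM/Ms, with an SD of strain means of 0.11, where the spread between arrays alone would give 0.063. Without replicate 1 NZB/BINJ read 11.52, again the lowest strain. MSM/Ms read 12.07 and 12.10, above the highest classical strain mean of 12.00, and the other wild-derived strains averaged 11.98 in JF1/Ms, 11.93 in CAST/EiJ, 11.85 in PWD/PHJ and 11.74 in WSB/EiJ, inside the classical range. The groups averaged 11.92 ± 0.13 in wild-derived strains (SD, n = 5) and 11.81 ± 0.097 in classical strains (SD, n = 35). The difference was 0.10 ± 0.050 (SE).

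Rgs14 joins RGS, Ras-binding and Gi-binding domains, and Rgs1 is known from activated lymphocytes. They had the lowest shares of variance between strains, 60.2% for Rgs14 and 54.3% for Rgs1, against 98.0% for the bright Rgs3 probe set. Such a share is large even with no strain effect, since most strain means rest on 2 arrays. Rgs14 lay between 9.65 in CBA/J and 10.17 in MA/MyJ, an SD of 0.13, where the spread between arrays alone would give 0.11. Its groups averaged 10.00 ± 0.13 in wild-derived strains (SD, n = 5) and 9.99 ± 0.14 in classical strains (SD, n = 35), a difference of 0.013 ± 0.065 (SE).

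Rgs1 lay among the dimmest probe sets of the array, with only 5.16% of probe sets having a lower mean. Its strain means ran between 3.88 in FVB/NJ, a single array, and 4.43 in MSM/Ms, an SD of 0.12, where the spread between arrays alone would give 0.10. The groups averaged 4.24 ± 0.13 in wild-derived strains (SD, n = 5) and 4.15 ± 0.11 in classical strains (SD, n = 35), a difference of 0.090 ± 0.055 (SE). Of the 7 probe sets, 5 averaged 7 or more over all arrays, and those of Rgs1 and the dim one of Rgs3 did not. The dim Rgs3 probe set had a wild-derived minus classical difference of 0.018 ± 0.047 (SE).

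**Figure D3:**
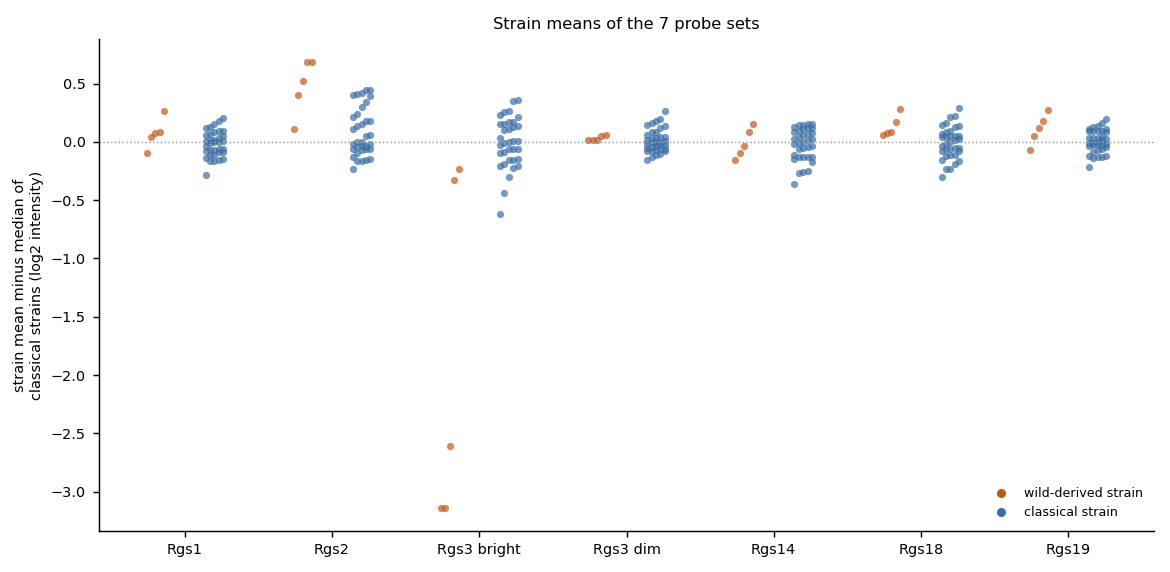
Strain means of the 7 probe sets, each minus the median of the classical strains for that probe set (log2 intensity), with 5 wild-derived strains on the left and 35 classical strains on the right of each pair. Rgs2 sits above the classical median in 5 of 5 wild-derived strains, and the bright Rgs3 probe set sits far below it in 3 of 5.

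Related strains were compared next, with all 24922 probe sets tested in each pair; the p-values rest on the arrays that also entered the earlier results behind the choice of genes, and are no independent evidence. C57BL/10J against C57BL/6J gave no member call in limma, beside 2.65% of all probe sets called. Its member differences lay between -0.19 and 0.09, with a lowest adjusted p of 0.43. At an unadjusted p under 0.05 it gave 0 of 7 member probe sets, where 3661 of 24922 probe sets passed. CBA/J against CBA/CaJ gave no member call in limma, beside 1.71% of all probe sets called. At an unadjusted p under 0.05 it gave 2 of 7, where 2930 of 24922 probe sets passed. There Rgs14 was 9.54 and 9.76 in CBA/J, against 10.06 and 10.07 in CBA/CaJ, a difference of -0.42 ± 0.15 (SE, adjusted p 0.18). NOD/ShiLtJ, which develops autoimmune diabetes, against the diabetes-resistant NOR/LtJ gave no member call in limma, beside 5.56% of all probe sets called. At an unadjusted p under 0.05 it gave 2 of 7, where 5167 of 24922 probe sets passed.

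In that last pair Rgs3 came nearest to the threshold. Its bright probe set read 10.38 and 10.46 in NOD/ShiLtJ, against 10.83 and 10.96 in NOR/LtJ, a difference of -0.48 ± 0.16 (SE, adjusted p 0.058). Its dim probe set read 6.67 and 6.94 in NOD/ShiLtJ, against 7.04 and 7.15 in NOR/LtJ, a difference of -0.29 ± 0.10 (SE, adjusted p 0.078). Both differences depended on the setting, and no setting makes their p-values independent of the choice of genes. The bright one passed when the test covered only probe sets averaging 7 or more (adjusted p 0.0463) and without the groups of conflicting labels (adjusted p 0.0498), and it lay farther from the threshold with a common array median (-0.41, adjusted p 0.164). With 1 array left out in turn its adjusted p lay between 0.0762 and 0.325. The dim one passed without replicate 2 of NOD/ShiLtJ (-0.42, adjusted p 0.0323), and without replicate 1 of NOD/ShiLtJ it differed by -0.15 (adjusted p 0.621).

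NZB/BINJ against NZW/LacJ, parents of a well-known lupus-prone hybrid, gave calls for 3 of 7 member probe sets, beside 45.5% of all probe sets. Rgs18 read 11.81 and 12.38 in NZB/BINJ, against 12.45 and 12.49 in NZW/LacJ, a difference of -0.38 ± 0.13 (SE, adjusted p 0.018). Rgs19 read 11.67 and 11.52 in NZB/BINJ, against 11.94 and 11.86 in NZW/LacJ, a difference of -0.31 ± 0.098 (SE, adjusted p 0.0097). The dim Rgs3 probe set read 7.32 and 7.07 in NZB/BINJ, against 6.84 and 6.83 in NZW/LacJ, a difference of 0.36 ± 0.10 (SE, adjusted p 0.0034). The 4 other probe sets did not pass, among them Rgs2 (0.27, adjusted p 0.085) and the bright Rgs3 probe set (0.33, adjusted p 0.075).

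**Figure D4:**
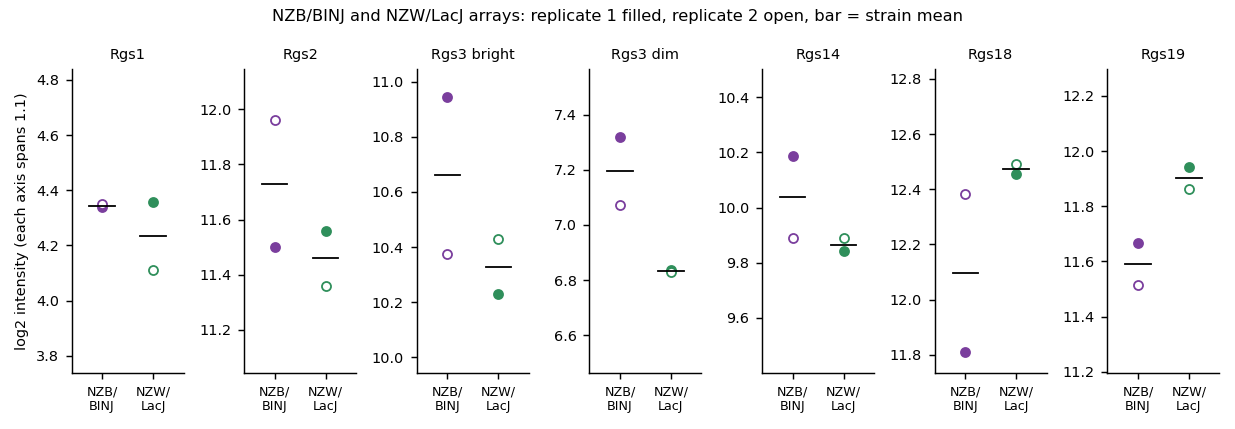
Log2 intensity of the 7 probe sets in the arrays of NZB/BINJ (left in each panel) and NZW/LacJ (right), with replicate 1 filled, replicate 2 open and bars for strain means; each vertical axis spans 1.1. The NZB/BINJ arrays lie far apart for Rgs18, at 11.81 and 12.38, and close together for Rgs19, at 11.67 and 11.52.

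These calls rested on few arrays, which also entered the earlier results behind the choice of genes. Without replicate 1 of NZB/BINJ, the array that stood apart, Rgs18 differed by -0.09 (adjusted p 0.70) and the dim Rgs3 probe set by 0.24 (adjusted p 0.15), whereas Rgs2 was called at 0.50 (adjusted p 0.017), and 4378 probe sets passed in place of 11328. Without replicate 2 of NZB/BINJ the bright Rgs3 probe set was called at 0.62 (adjusted p 0.00403) and Rgs19 was not (-0.23, adjusted p 0.0925). Without replicate 1 of NZW/LacJ neither Rgs18 (-0.40, adjusted p 0.0812) nor Rgs19 (-0.27, adjusted p 0.11) passed, and 4157 probe sets did; without replicate 2 of NZW/LacJ Rgs18 did not pass (-0.36, adjusted p 0.065). The median difference over all probe sets was 0.104 as deposited and 0.0359 after quantile normalization, which also left Rgs18 (-0.17, adjusted p 0.356) and Rgs19 (-0.11, adjusted p 0.321) uncalled. After that normalization Rgs2 (0.47, adjusted p 0.00299), the bright Rgs3 probe set (0.61, adjusted p 0.00332) and Rgs14 (0.51, adjusted p 0.00448) passed as higher in NZB/BINJ.

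The members did not vary as a block. Among the 35 classical strains the closest relation was between the bright Rgs3 probe set and Rgs14 (r = 0.688, Spearman 0.644, and r = 0.565 without the 2 strains farthest from the median). The bright Rgs3 probe set also had r = 0.557 with Rgs1 and r = 0.554 with the dim Rgs3 probe set. Rgs18 ran slightly against the others, with r = -0.345 with Rgs14 and r = -0.283 with Rgs19 (-0.419 without replicate 1 of NZB/BINJ), and Rgs2 had r between -0.138 and 0.222 with all other probe sets over the same strains. These values are descriptions without a test, since the strains share ancestry and each strain mean comes from the same arrays. Over all 40 strains no relation between another member and the bright Rgs3 probe set is read, since 3 strains lie apart on it.

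Genes with the most similar pattern were sought among 4174 genes whose strain means spanned at least 1 and reached at least 7. For the bright Rgs3 probe set they were Emilin2, which encodes a secreted glycoprotein (r = 0.906 over 40 strains), the RNP assembly gene Smn1 (0.878) and the amyloid precursor gene App (0.878), and the most opposite was the serine carboxypeptidase gene Scpep1 (-0.926). Over the 35 classical strains alone these values were 0.518, 0.103, -0.0677 and 0.466, so for Smn1, App and Scpep1 the relation over 40 strains did not hold among classical strains. Scpep1 was 8.23 in MSM/Ms, 8.47 in JF1/Ms and 8.35 in PWD/PHJ, against 5.18 to 5.83 in classical strains, the inverse of Rgs3. App was 9.82 in MSM/Ms, 10.00 in JF1/Ms and 9.47 in PWD/PHJ, against 11.04 to 11.69 in classical strains.

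For Rgs2 the most similar genes were the Polycomb gene Phc3 (r = 0.680 over 40 strains), the transporter gene Slc16a14 (0.674) and Nt5e, which encodes the ectonucleotidase CD73 (0.670). The most opposite was Coa8 (-0.688), a gene of cytochrome c oxidase assembly. Nt5e was 11.84 in CAST/EiJ, 11.98 in JF1/Ms, 12.16 in MSM/Ms and 11.80 in PWD/PHJ, all above the classical maximum of 11.32, and 10.56 in WSB/EiJ. Over classical strains alone the values were lower: 0.454 for Phc3, 0.366 for Slc16a14, 0.416 for Nt5e and -0.545 for Coa8.

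For Rgs18 the nearest were Mier1 (0.791), the ubiquitin ligase gene Cop1 (0.788) and the zinc finger gene Zfp120 (0.773), and the most opposite the corepressor gene Trim28 (-0.647). These relations were nearly as close among the 35 classical strains, at 0.767, 0.763, 0.755 and -0.585. Rgs19 was nearest to Ubald1 (0.720), Tmem104 (0.698) and Prrc2a (0.695) and most opposite to the RNA-binding gene Larp4 (-0.634). Rgs14 was nearest to the retinoic acid receptor gene Rara (0.690), Nat8l (0.633) and Zfhx3 (0.623), and most opposite to the helicase gene Dhx15 (-0.746). The dim Rgs3 probe set had small RNA genes near it, Rprl1 (0.744), Mir320 (0.740) and Rprl2 (0.735), with Nsmce2 most opposite (-0.794). Rgs1 was nearest to the small RNA gene Snora41 (0.618), Rara (0.587) and Gm10785 (0.579), with Ppih most opposite (-0.700).

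The other genes of the pathway were read through lists. Of 14 other Rgs genes with a probe set, 4 differed among strains, where 56.0% of all probe sets and 84.9% of those averaging 7 or more passed, and 2 of them also spanned at least 1 on the log2 scale, where 24.5% of all probe sets did. The widest was Rgs9, a regulator known from retina and striatum, at 8.32 in CAST/EiJ, with the next strain, LP/J(676), at 6.61. Rgs7, known from neurons, was the only gene of this list called by origin, higher by 0.35 ± 0.11 (SE, adjusted p 0.025) in wild-derived strains, with its highest strain mean, 5.44, in CAST/EiJ. The median SD of strain means was 0.118 over these 14 genes, against 0.141 over all probe sets.

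Of 14 other genes with an RGS homology domain, 11 differed among strains, beside 56.0% of all probe sets and 84.9% of those averaging 7 or more. Of these, 6 also spanned at least 1, where 24.5% of all probe sets did. The receptor kinase gene Grk3 lay between 5.83 in JF1/Ms and 7.80 in NOD/ShiLtJ and had a wild-derived minus classical difference of -0.65 ± 0.16 (SE, adjusted p 0.0041). Axin2, a scaffold and target of Wnt signalling, was higher by 0.61 ± 0.11 (SE, adjusted p 7.9e-05), with 7.89 in JF1/Ms. The sorting nexin gene Snx25 was higher by 0.23 ± 0.075 (SE, adjusted p 0.034). Of all probe sets, 12.2% were called by origin. Grk5 spanned 7.74 in NZB/BINJ (7.94 without its replicate 1) to 9.29 in CAST/EiJ without passing the origin test (0.40, adjusted p 0.066).

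Among the G protein subunits that RGS proteins act on or beside, 6 of 12 alpha subunit genes differed among strains, beside 56.0% of all probe sets. None was called by origin in limma, beside 12.2% of all probe sets. At an unadjusted p under 0.05 there were 3, where 6637 of 24922 probe sets passed. The Gq gene Gnaq lay between 9.88 in MSM/Ms and 11.33 in RIIIS/J, and Gna12 between 9.14 in NZB/BINJ (9.23 without its replicate 1) and 10.47 in JF1/Ms. Gnai2, the main Gi alpha subunit of neutrophils and named here after its values were seen, was not called and stayed between 12.87 and 13.17. Of 17 beta and gamma subunit genes, 8 differed among strains. Gnb4 was higher by 0.76 ± 0.20 (SE, adjusted p 0.009) in wild-derived strains, with 8.84 in MSM/Ms and the next strain, CAST/EiJ, at 6.07. Gng12 was lower, with a difference of -0.54 ± 0.13 (SE, adjusted p 0.0041) and its lowest level, 10.44, in MSM/Ms.

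**Figure D5:**
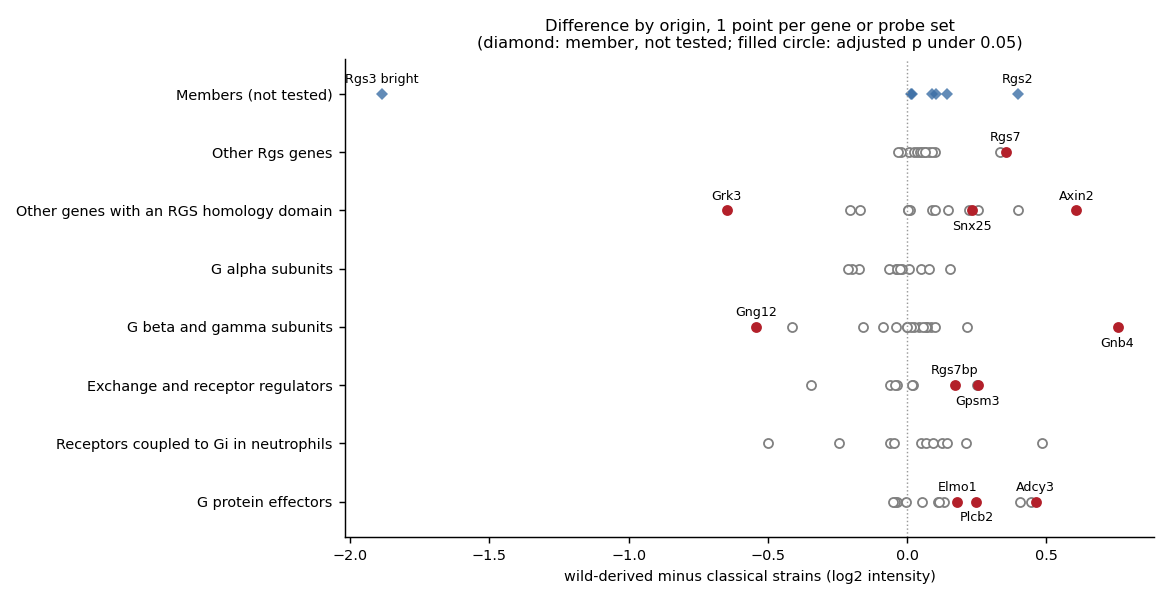
Wild-derived minus classical difference (log2 intensity) of the 7 member probe sets (diamonds, not tested) and of the genes of 7 pathway lists (circles, filled where the limma adjusted p passed). The bright Rgs3 probe set lies farthest out, at -1.89, Rgs2 is the highest member, at 0.40, and the list genes reach 0.76 in Gnb4 and -0.65 in Grk3.

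Of 9 regulators of G protein exchange and of receptors, 7 differed among strains, and Gpsm3, which binds inactive Gi alpha subunits in blood cells, was higher by 0.25 ± 0.074 (SE, adjusted p 0.018) in wild-derived strains. Rgs7bp, which anchors Rgs7 and its relatives to membranes, was higher by 0.17 ± 0.055 (SE, adjusted p 0.033). Of 11 upstream receptor genes that couple to Gi in neutrophils, 10 differed among strains, beside 56.0% of all probe sets and 84.9% of those averaging 7 or more. None was called by origin in limma, beside 12.2% of all probe sets. At an unadjusted p under 0.05 there were 4, where 6637 of 24922 probe sets passed. The widest were S1pr1, a receptor for sphingosine 1-phosphate, at 8.71 in CAST/EiJ and 6.56 in KK.Cg-Ay/J, Hcar2, between 7.51 in PWD/PHJ and 9.54 in NZB/BINJ (10.22 without its replicate 1), and Cxcr1, between 6.46 in NOD/ShiLtJ and 8.44 in NOR/LtJ. Fpr1, Fpr2 and Fpr3 were not analysed here.

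Downstream, 11 of 13 effector genes differed among strains, beside 56.0% of all probe sets and 84.9% of those averaging 7 or more. By origin 3 were called higher in wild-derived strains, beside 6.64% of all probe sets. Adcy3, an adenylyl cyclase, was higher by 0.46 ± 0.12 (SE, adjusted p 0.009), Plcb2, the phospholipase C that responds to G protein beta and gamma subunits, by 0.25 ± 0.071 (SE, adjusted p 0.016), and Elmo1, a partner of the Rac activator Dock2, by 0.18 ± 0.059 (SE, adjusted p 0.039). The median difference of the list was 0.116, against 0.0262 over all probe sets. The mean of the effector list followed Rgs19 at r = 0.604 and Rgs2 at r = 0.494 over 40 strains, and at 0.477 and 0.222 over the 35 classical strains.

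Levels of other cell types were set beside each member as list means over 40 strains. Rgs18 ran against the early progenitor granule list, which holds Mpo and Elane (r = -0.557), and against the cell cycle list (r = -0.395). Rgs1 ran with the B cell list (r = 0.534) and against the cell cycle list (r = -0.468). Most other members also ran against the cell cycle list: Rgs14 (-0.401), the dim Rgs3 probe set (-0.342) and Rgs2 (-0.293), but not Rgs19 (-0.000381). The bright Rgs3 probe set had r = 0.144 with it, and -0.467 over the 35 classical strains. The dim Rgs3 probe set ran with the means of 4 erythroid genes (r = 0.638) and of the 14 other Rgs genes (r = 0.661). Without replicate 1 of NZB/BINJ these values were 0.575 and 0.608. Rgs1 and the dim Rgs3 probe set averaged under 7, and the mean of the other Rgs genes lay between 5.39 and 5.80. Rgs2 had r = -0.0298 with the 14 immediate early genes, among them Fos and Jun. This was 0.053 without replicate 1 of NZB/BINJ, and 0.213 over the 35 classical strains with all arrays. The part of these cells and states in the members' levels was not tested.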

How the data were processed

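Biotin-labelled RNA of sorted bone marrow neutrophils was read on Affymetrix whole-transcript arrays, per the labels. The authors deposited 1 linear intensity per probe set and array. RMA and Affymetrix Power Tools are named, with no version, per the submitters' processing notes. The probes' genome build and annotation were not given in the sources used here. No scanner files were used, so background per probe was not examined, and the number of arrays limits the precision.

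Values were converted to log2 with no further scaling. A probe set was named only where the platform table gave 1 symbol, and a list gene with several was read from its brightest. Arrays were grouped by title. R 4.3.3 with limma 3.58.1 (lmFit, eBayes, Benjamini-Hochberg over all 24922 probe sets, called at an adjusted p under 0.05) fitted 1 mean per group over 81 arrays, with 41 residual degrees of freedom, for differences among strains and between related strains; groups left with 1 array are assumed to vary like the others. Origin was tested on strain means, with the strain as replicate and 1 spread assumed for both groups. The members' p-values of that test are not given, since earlier results of the same contrast were known when the genes were chosen. The series design states 2 biological replicates per strain from pools of mice. The script was tested on simulated data.

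Members and lists were chosen with earlier results of these data known. Named were all members, for each pathway list up to 4 genes called among strains with the largest SD and up to 4 with the largest called difference by origin, and for each probe set the 3 most similar genes and the most opposite one; a few genes of a list are named only as examples of what it holds. Replicate numbers did not pair the arrays: over 595 pairs of strains the correlation of replicate 1 minus replicate 2 ran between -0.503 and 0.505, with a median of 0.00369. Alternatives were quantile normalization, a common array median, a filter on dim probe sets, other groupings, a trended and robust prior, a replicate block, and leaving out arrays or strains.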

Additional observations from a re-analysis of the deposited data

Results flagged for a closer look

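Rgs18 in C57BL/6J had an array far from the other arrays of its strain. Replicate 1 read 12.40, against 12.09, 12.11, 12.14 and 12.15 in the other arrays. Replicate 1 was also the lowest of the C57BL/6J arrays for Rgs14, at 9.54, and for Rgs19, at 11.55, where the others read 9.92 to 10.16 and 11.75 to 11.84. This was 1 of 14 groups examined, so an array set apart can be due to chance. Groups that share arrays are not independent of each other.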

How the results depend on the processing

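Of 1695 recomputed values, 1643 kept their direction and side of the threshold, or moved by less than the spread or, for counts, by at most 1.5 times. The other 52 changed, 31 of them with 1 array left out. Many of the values were SDs or ranges of member strain means with 1 of 81 arrays left out. Such an SD could hardly move by the spread between arrays, so its staying the same tells little. The Rgs2 difference by origin lay between 0.35 and 0.49 in 13 recomputations. The Rgs19 difference by origin was 0.13 after quantile normalization, and the near-zero Rgs14 difference changed sign without the groups of conflicting labels (-0.012), without JF1/Ms (-0.028) and without MSM/Ms (-0.0095). For NZB/BINJ minus NZW/LacJ, Rgs1 changed sign after quantile normalization (-0.067), with a common array median (-0.029) and without NZW/LacJ replicate 2 (-0.016). Over all probe sets, 1971 differed by origin without JF1/Ms and 1796 without MSM/Ms, against 3039; the share of these calls that was higher was 54.5%, and 43.7% when only probe sets averaging 7 or more were tested. NZB/BINJ and NZW/LacJ differed in 6331 probe sets averaging 7 or more, where fewer were tested. CBA/J and CBA/CaJ differed in 807 when grouped by background label, against 425. That label also places the arrays titled C57BR in the CBA/CaJ group, so the 2 counts compare different sets of arrays. With 1 array left out in turn, calls ran between 123 and 999 for C57BL/10J and C57BL/6J, 124 and 214 for the CBA strains, 451 and 1621 for NOD/ShiLtJ and NOR/LtJ, and 4157 and 12835 for NZB/BINJ and NZW/LacJ; replicate 1 of NZB/BINJ was left out of the origin comparison after the data were seen (3157 called). The NZB/BINJ minus NZW/LacJ difference of Rgs1 ran between -0.016 and 0.23. As a replicate block, the replicate number moved no count by over 1.5 times: 13465 probe sets differed among strains, 654, 433, 1381 and 11265 between the 4 pairs as listed above, and 3 member probe sets in the last pair. The cause of these changes was not tested.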

Other observations

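In the reference gene order of assembly GRCm38.p6, Rgs2, Rgs13, Rgs1, Rgs21 and Rgs18 follow each other on chromosome 1 with no other protein-coding gene between them. Over the 40 strain means Rgs2 had r = 0.297 with Rgs1 and r = 0.0978 with Rgs18, and Rgs1 had r = -0.0658 with Rgs18. The SD of strain means was 0.246 for Rgs2, 0.141 for Rgs18, 0.119 for Rgs13, 0.116 for Rgs1 and 0.129 for Rgs21, and neither Rgs13 nor Rgs21 was called among strains. Rgs3 lies on chromosome 4, Rgs14 on chromosome 13 and Rgs19 on chromosome 2.

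Of 14 immediate early genes, 13 differed among strains, beside 56.0% of all probe sets and 84.9% of those averaging 7 or more. By origin 1 of them, Atf3, was called, beside 12.2% of all probe sets, and was lower in wild-derived strains (difference -0.40, adjusted p 0.0048).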
